A study of Arabidopsis thaliana with 6 samples.

Results

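CC-type glutaredoxins were followed in the shoots of Arabidopsis thaliana seedlings in which SPT4 was targeted by RNA interference (RNAi). The set was a list of 10 loci of this plant-specific class: the tandem cluster AT4G15660 to AT4G15700 on chromosome 4 (5 loci), AT3G62930, AT3G62950 and AT3G62960 on chromosome 3, and the single genes AT1G03020 and AT2G30540. Of the 10, 9 had a probe set annotated to a single gene, among 13355 such genes in the series. AT4G15670 had none in the annotation used and was not analysed here. The loci were selected on their class and on the difference in log2 signal between the genotypes, which was already known, so their differences are given as a description with no test.

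The series compared 2 groups of 3 samples, each hybridised to a single-colour oligonucleotide array. Wild type was the accession Col-0 (Columbia-0), and SPT4-R3 was RNAi line 3 against SPT4 in the same background, so that 1 RNAi line stands for the knockdown. The labels do not give the promoter of the RNAi construct. All plants were stratified for 2 days, grown for 10 days on MS agar under 16 h of light and 8 h of dark, and only the aerial part was taken, 2 h after lights on. The replicates are called biological, without a statement on separate sowings, so the errors measure only spread within this series. Each SE of a difference is the moderated SE of the limma fit over all probe sets. That fit draws the variance of each probe set towards a common value, so the SE is not the spread of its own values alone.

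Glutaredoxins are small enzymes that use glutathione to reduce disulphides in other proteins. The CC-type is named for the pair of cysteines that starts its active site, and it is found only in land plants, where it has expanded by tandem duplication. Its proteins bind TGA-type bZIP transcription factors and take part in flower development, in defence hormone signalling and in the response of the plant to nitrogen supply.

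The values are log2 signals of a probe set, and all differences are SPT4-R3 minus wild type on that scale. The arrays were alike in scale, with medians of 6.49 to 6.53. SPT4-1 (AT5G08565), the SPT4 gene with a probe set of its own, fell by 1.0 ± 0.0753 (SE, n = 3 per genotype, limma adjusted p = 2.15e-06). Probe sets of the trp control, a bacterial transcript taken here as the level of background, read 3.46 to 3.84. The 4 root markers EXPA7, EXPA18, PYK10 and AT4G26010 differed by -0.12 to 0.01 and did not pass the test (limma adjusted p = 0.247 to 0.946), but PYK10 read 11.77 in wild type and 11.76 in SPT4-R3, so they do not show that root tissue was absent. RCA, the Rubisco activase gene of leaves, was the only leaf marker with a single-gene probe set in the annotation used. It fell from 14.39 to 14.12 on the deposited scale (-0.27 ± 0.0543 SE, limma adjusted p = 0.00204). The difference was -0.12 with the arrays centred on the spiked poly-A controls. It turned to 0.12 when they were centred on the bioB, bioC and bioD controls. The part of RCA in the results was not tested. In such bulk samples fewer cells of a type and less RNA per cell cannot be told apart.

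All 4 measured genes of the chromosome 4 cluster were higher in SPT4-R3, by 0.39 to 2.77. On chromosome 3, AT3G62950 was lower by 2.94, AT3G62930 was lower by a small amount on the deposited scale, and AT3G62960 read the same. Of the single genes, AT2G30540 was slightly higher and AT1G03020 overlapped. In all, 5 members passed the threshold as higher and 2 as lower, against a background of 24.7% of the 13355 genes called higher and 21.6% called lower (49.9% of the 22746 probe sets in either direction), and nothing is read from these counts because the choice of members used the same contrast. The median difference of the 9 was 0.23, against -0.003 for all genes, and the median absolute difference was 0.393, against 0.16.

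**Figure D1:**
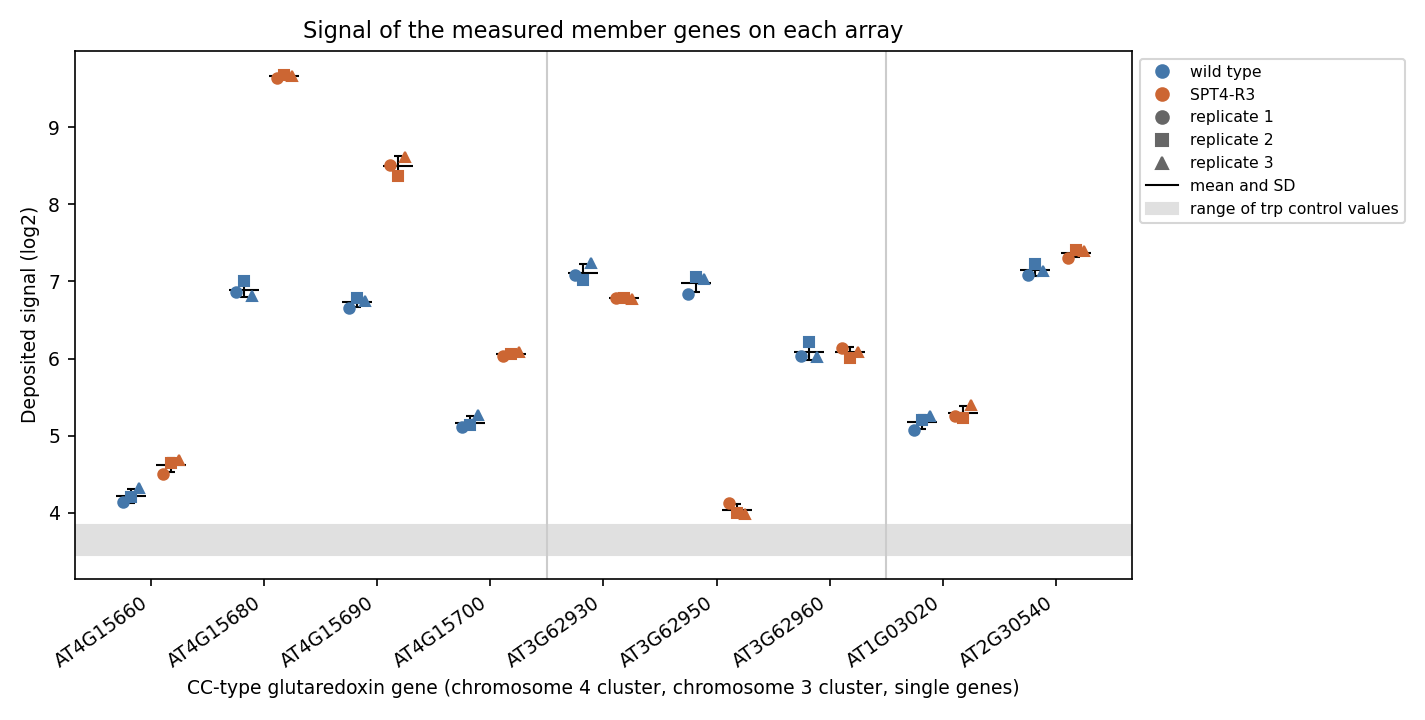
Deposited log2 signal (y axis) of the 9 measured CC-type glutaredoxin genes (x axis) on each of the 3 wild-type (blue) and 3 SPT4-R3 (orange) arrays. Black bars are the mean and SD of 3 arrays, and the grey band is the range of the trp control values, 3.46 to 3.84. AT4G15680 stands at 9.64 to 9.68 in SPT4-R3 against 6.81 to 7.0 in wild type, and AT3G62950 drops to 3.99 to 4.13.

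Within the chromosome 4 cluster the largest difference was at AT4G15680. It read 6.87, 7.0 and 6.81 in wild type, against 9.64, 9.68 and 9.66 in SPT4-R3. The SPT4-R3 arrays all lay far above wild type and differed from each other by less than the wild-type arrays did. The difference of 2.77 ± 0.0608 (SE) is a 6.81-fold rise in signal.

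AT4G15690, the next gene in the row, gave wild-type values of 6.66, 6.79 and 6.75 and SPT4-R3 values of 8.51, 8.37 and 8.62. All SPT4-R3 arrays were again above all wild-type arrays, and the difference of 1.77 ± 0.0715 (SE) is 3.4-fold. AT4G15700, the last gene of the cluster, read 5.11, 5.14 and 5.27 in wild type, against 6.03, 6.06 and 6.09 in SPT4-R3. Its difference of 0.89 ± 0.0588 (SE), or 1.85-fold, was larger than the spread of either genotype.

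AT4G15660, at the other end of the cluster, was dim in both genotypes. It gave wild-type values of 4.14, 4.21 and 4.32 and SPT4-R3 values of 4.51, 4.65 and 4.69, without overlap. The difference was 0.39 ± 0.0686 (SE). The wild-type values lay below the lower quartile of the arrays (4.41 to 4.44) and above the trp range. No detection call was used, and the part of background in this low signal was not tested.

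Averaged over its 4 measured genes, the chromosome 4 cluster read 5.7, 5.78 and 5.79 in wild type, against 7.17, 7.19 and 7.26 in SPT4-R3. The means were 5.76 ± 0.0527 (SD, n = 3) and 7.21 ± 0.0491, a difference of 1.45. The difference was uneven along the row: the SD of the 4 differences was 1.04, and in the order of the genes they were 0.39, unknown for AT4G15670, 2.77, 1.77 and 0.89. Every SPT4-R3 array kept this order of sizes. Measured from each gene's own wild-type mean, the arrays gave 2.75 to 2.79 for AT4G15680, 1.64 to 1.89 for AT4G15690, 0.86 to 0.92 for AT4G15700 and 0.29 to 0.47 for AT4G15660.

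Genes of a tandem cluster are close in sequence. None of the 9 member probe sets had an identifier that marks probes shared between genes, each gene had 1 probe set, and no probe set annotated to several genes listed a member. Probe sequences were not used here, and how far each of these probe sets reads its own gene alone was not tested.

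The chromosome 3 group contained the deepest fall. AT3G62950 gave wild-type values of 6.84, 7.06 and 7.03 and SPT4-R3 values of 4.13, 4.0 and 3.99. The SPT4-R3 arrays were close together, below the lower quartile of the arrays and above the highest trp value. The difference of -2.94 ± 0.0717 (SE) is a 7.66-fold fall in signal, and since no detection call was used its full size near background is uncertain.

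The other genes of the group differed little. AT3G62930 read 7.08, 7.02 and 7.24 in wild type, against 6.79, 6.78 and 6.77 in SPT4-R3. The SPT4-R3 arrays were all lower, by -0.33 ± 0.0643 (SE) on the deposited scale, but the difference was -0.18 with the arrays centred on the poly-A controls and turned to 0.06 when they were centred on the bioB, bioC and bioD controls. AT3G62960, the direct neighbour of AT3G62950, gave wild-type values of 6.03, 6.21 and 6.02 and SPT4-R3 values of 6.14, 6.01 and 6.09. Its genotypes overlapped, with a difference of -0.01 ± 0.0671 (SE), which turned to 0.39 under the bioB, bioC and bioD centring.

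The mean of the 3 chromosome 3 genes was 6.65, 6.76 and 6.76 for wild type, against 5.69, 5.6 and 5.62 for SPT4-R3, a difference of -1.09. This mean was carried by AT3G62950, as the SD of the 3 differences was 1.61. The position between AT3G62930 and AT3G62950 is held by AT3G62940, which is no member and had no single-gene probe set here.

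The single genes differed little. AT2G30540 read 7.08, 7.23 and 7.13 in wild type, against 7.31, 7.41 and 7.4 in SPT4-R3, a difference of 0.23 ± 0.0596 (SE) with no overlap between the genotypes. AT1G03020 gave wild-type values of 5.08, 5.21 and 5.26 and SPT4-R3 values of 5.26, 5.23 and 5.4. These values overlapped, and the difference was 0.11 ± 0.0683 (SE) on the deposited scale. It was 0.26 with the arrays centred on the poly-A controls and 0.51 under the bioB, bioC and bioD centring.

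Among the 9 members, 7 had genotypes that did not overlap, 5 of them higher and 2 lower in SPT4-R3. Over all genes 27.2% did not overlap with SPT4-R3 higher and 24.5% with SPT4-R3 lower. Differences of at least 1 were seen in 3 members, AT4G15680, AT4G15690 and AT3G62950, against 1.8% of all genes with a rise and 2.3% with a fall of that size. The member choice used this contrast, so these shares are set beside each other only as a description.

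The differences depend on how the arrays are scaled. Bacterial bioB, bioC and bioD transcripts, spiked in equal amounts into each hybridisation in the usual procedure, averaged 9.01 on wild-type arrays but 8.62 on those of SPT4-R3. The gap of -0.39 had an exact permutation p of 0.1 (two-sided, 3 arrays against 3), the smallest possible, and when the arrays were centred on these controls the median over all probe sets became 0.39. The poly-A controls (dap, lys, phe, thr) averaged 6.8 in wild type and 6.65 in SPT4-R3, with overlap between the genotypes (exact permutation p of 0.2, two-sided). With these as the centre the median over all probe sets became 0.15. On the bioB, bioC and bioD scale the differences were 3.16 for AT4G15680, 2.16 for AT4G15690, 1.28 for AT4G15700, 0.79 for AT4G15660 and -2.54 for AT3G62950. The 4 chromosome 4 genes and AT2G30540 were higher, and AT3G62950 was lower, on the deposited scale and under quantile normalization and all 3 centrings. Relative to the median of all probe sets, the centrings change nothing, because each shifts all probe sets of an array alike.

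**Figure D2:**
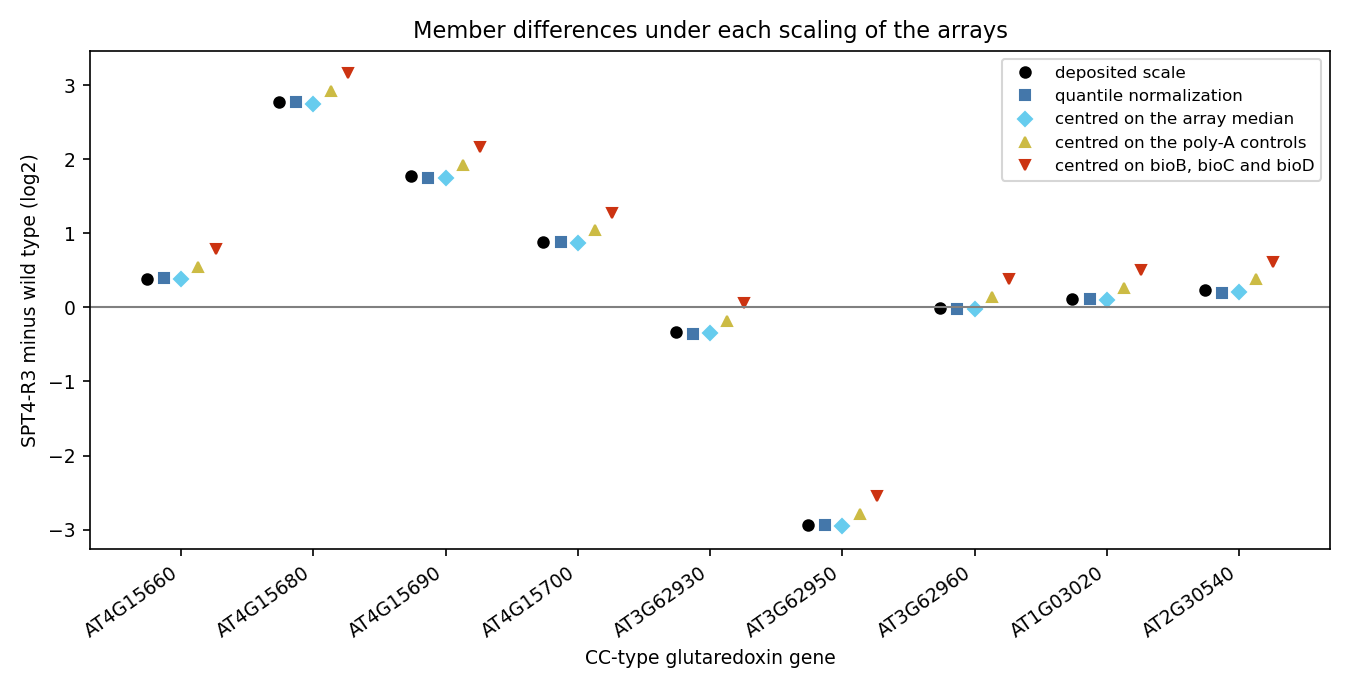
Difference of SPT4-R3 minus wild type in log2 (y axis) for the 9 measured members (x axis) on the deposited scale and under 4 other scalings. The chromosome 4 genes stay above 0 and AT3G62950 stays below it under each scaling, while AT3G62930 goes from -0.33 to 0.06 and AT3G62960 from -0.01 to 0.39 under the bioB, bioC and bioD centring.

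Among CC-type glutaredoxin genes outside the set, falls outnumbered rises on the deposited scale. Of the 11 other loci of the class, 8 were measured: 4 fell, 1 rose and 3 did not pass the test, with a median difference of -0.18. Over all genes 46.3% were called in either direction. On the bioB, bioC and bioD scale the split was 4 higher and 3 lower, and on the poly-A scale 1 higher and 3 lower. Over all 22746 probe sets the splits on these scales were 17406 higher and 1589 lower, and 6926 higher and 2478 lower. Whether these loci differ from the members as a set was not tested. This list and the gene lists below were chosen with earlier results of these data known. Their p-values and shares are therefore given as a description.

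AT2G47880 had the largest fall of these. It read 6.96, 7.12 and 7.01 in wild type, against 4.75, 5.08 and 5.25 in SPT4-R3. The SPT4-R3 arrays were spread more widely than wild type (SD 0.254 against 0.0819) but lay well below it, and the difference was -2.0 ± 0.11 (SE, limma adjusted p = 2.49e-07).

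AT1G06830 gave wild-type values of 8.9, 8.88 and 8.86 and SPT4-R3 values of 7.98, 8.1 and 8.11, and fell by 0.82 ± 0.0558 (SE, limma adjusted p = 1.12e-06). AT5G18600, with wild-type values of 10.74, 10.81 and 10.76 and SPT4-R3 values of 9.93, 9.96 and 9.99, fell by 0.81 ± 0.0513 (SE, limma adjusted p = 6.51e-07). The genotypes were clearly apart in both genes. GRX480 (AT1G28480), which binds TGA factors and links salicylic acid to jasmonate signalling, fell from 4.5 to 4.25 on the deposited scale (-0.25 ± 0.0657 SE, limma adjusted p = 0.00884), but it differed by -0.1 on the poly-A scale and by 0.14 on the bioB, bioC and bioD scale. Its SPT4-R3 values of 4.26, 4.32 and 4.17 lay below the lower quartile of the arrays (4.41 to 4.44), and the part of background in them was not tested.

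AT4G33040 was the only other CC-type gene that rose on the deposited scale. It read 6.47, 6.47 and 6.44 in wild type, against 7.28, 7.37 and 7.38 in SPT4-R3, a rise of 0.88 ± 0.0529 (SE, limma adjusted p = 4.39e-07). ROXY1 (AT3G02000), which acts in petal initiation, differed by -0.01 (95% interval -0.16 to 0.14) and ROXY2 (AT5G14070), which acts with it in anther development, by -0.1 (-0.23 to 0.03). AT5G11930 differed by 0.03 (-0.09 to 0.15). These 3 did not pass the test (limma adjusted p = 0.917, 0.199 and 0.641). On the bioB, bioC and bioD scale they read 0.38, 0.29 and 0.43.

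**Figure D3:**
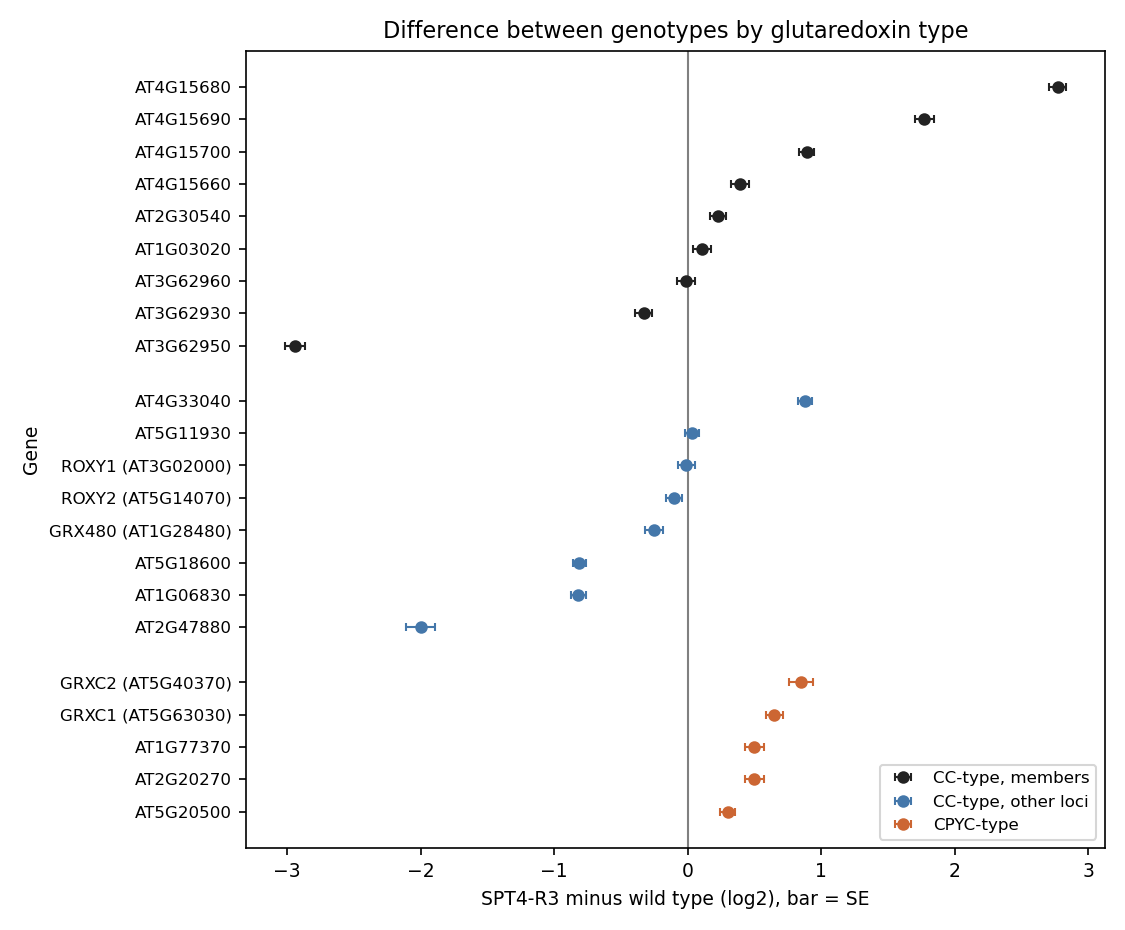
Difference of SPT4-R3 minus wild type in log2 (x axis) for each measured glutaredoxin gene (y axis), with the SE of the limma fit as bars, for the 9 members (black), 8 other CC-type genes (blue) and 5 CPYC-type genes (orange). CC-type genes lie on both sides of 0, from -2.94 to 2.77, and the 5 CPYC-type genes lie between 0.3 and 0.85.

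The CPYC-type glutaredoxins, the older class shared with animals and fungi, were higher in SPT4-R3 throughout. All 5 measured of 6 rose, by 0.3 to 0.85, with a median of 0.5, against 24.7% of all genes called higher. The share is set beside them only as a description, as this list too was chosen with earlier results known. They were higher on the deposited scale, under quantile normalization and under all 3 centrings. GRXC2 (AT5G40370) gave wild-type values of 10.66, 11.04 and 10.85 and SPT4-R3 values of 11.78, 11.63 and 11.69, a rise of 0.85 ± 0.09 (SE, limma adjusted p = 2.51e-05). Its wild-type arrays varied more than those of SPT4-R3 without reaching them.

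GRXC1 (AT5G63030) read 8.48, 8.61 and 8.57 in wild type, against 9.3, 9.16 and 9.15 in SPT4-R3, a rise of 0.65 ± 0.0626 (SE, limma adjusted p = 1.28e-05). AT1G77370 and AT2G20270 each rose by 0.5 (limma adjusted p = 0.000188 and 0.000225). AT5G20500 rose by 0.3 (limma adjusted p = 0.000978). None of the 4 CGFS-type genes, whose proteins carry iron-sulphur clusters, was analysed here.

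Genes around the members' biochemistry were sparsely covered by single-gene probe sets in the annotation used, which gave no gene for 8730 probe sets. A gene not measured here may thus still have a probe set on the array. Of 4 genes for making and reducing glutathione, which feeds electrons to glutaredoxins, the 2 glutathione reductases were measured. GR1 (AT3G24170) rose from 10.7 to 10.92 (0.22 ± 0.0594 SE, limma adjusted p = 0.011). GR (AT3G54660), the reductase of plastids and mitochondria, fell from 11.18 to 10.86 (-0.32 ± 0.0549 SE, limma adjusted p = 0.000682), and on the bioB, bioC and bioD scale it differed by 0.07. None of the 10 TGA factor genes was analysed here.

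Nitrate and cytokinin response genes were examined because CC-type genes are known to respond to both. Of 22 nitrate response loci, 3 were measured, too few to stand for the list: AT1G25550 rose by 0.21 (limma adjusted p = 0.00639), AT1G68670 fell by 0.42 (limma adjusted p = 0.000113) and AT3G25790 read 4.14 in both genotypes (difference 0 ± 0.0492 SE). The values of AT3G25790, 4.12 to 4.15, lay below the lower quartile of the arrays (4.41 to 4.44), and the part of background in them was not tested. The fall of AT1G68670 did not pass on either control-centred scale (-0.27 on poly-A and -0.02 on bioB, bioC and bioD; limma adjusted p = 0.0639 and 0.833). Of 10 type-A cytokinin response regulators, ARR16 (AT2G40670) and ARR15 (AT1G74890) were measured. ARR16 went from 5.59 ± 0.356 (SD, n = 3) to 8.05 ± 0.0404 and ARR15 from 7.78 to 6.97, both past the threshold.

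The neighbours of the clusters were compared with the members along the chromosome. On chromosome 4 the members were bordered on both sides by genes that did not pass the test on the deposited scale. AT4G15650, directly before the cluster, gave wild-type values of 3.59, 3.48 and 3.61 and SPT4-R3 values of 3.6, 3.5 and 3.62, values inside the trp range in both genotypes, where a fall could not be seen. AT4G15710, directly after the cluster, read 4.42, 4.37 and 4.42 in wild type, against 4.54, 4.58 and 4.42 in SPT4-R3. The difference was 0.11 (95% interval -0.02 to 0.24, limma adjusted p = 0.149). On the bioB, bioC and bioD scale AT4G15650 and AT4G15710 differed by 0.41 and 0.5, and both passed (limma adjusted p = 0.000168 and 3.24e-06). Both differences include the shift of 0.39 that this centring gave to the median over all probe sets. The fit treats the error of that shared shift as separate for each probe set, so these p-values overstate what is known of these genes.

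Of the 20 nearest measured genes, 10 on each side, 5 were higher and 6 lower, with a median difference of 0.04, against 46.3% of all genes called. The largest differences among them were those of UGT84A4 (AT4G15500), a glucosyltransferase gene, at 1.19 ± 0.0594 (SE, limma adjusted p = 1.24e-07), and PPDK (AT4G15530), the pyruvate phosphate dikinase gene, at -0.9 ± 0.0641 (SE, limma adjusted p = 1.55e-06). AT4G15640, 2 genes before the cluster, rose by 0.81 (limma adjusted p = 5.58e-07), and AT4G15770, 13 genes after it, rose by 0.7 (limma adjusted p = 3.09e-06). On the bioB, bioC and bioD scale 15 of the 20 were higher and 2 lower. Of all 22746 probe sets, 17406 were called higher and 1589 lower on that scale.

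On chromosome 3 the nearest neighbours did not pass the test on the deposited scale either. AT3G62920, directly before AT3G62930, differed by 0.07 (95% interval -0.06 to 0.2, limma adjusted p = 0.34). AT3G62970, directly after AT3G62960, differed by -0.12 (-0.28 to 0.03, limma adjusted p = 0.178). On the bioB, bioC and bioD scale they differed by 0.46 and 0.27, and both passed (limma adjusted p = 1.85e-05 and 0.0119). The limit given for the p-values of the chromosome 4 neighbours on that scale holds here too. Of the 20 nearest measured genes 6 were higher and 3 lower, with a median of 0.06, against 46.3% of all genes called. AT3G62820, 12 genes before the group, fell by 1.8 ± 0.0634 (SE, limma adjusted p = 1.36e-08) and AT3G63090, 18 genes after it, rose by 1.16 ± 0.056 (SE, limma adjusted p = 1.01e-07). AT3G62790 rose by 0.6 (limma adjusted p = 1.33e-05) and AT3G62890 by 0.42 (limma adjusted p = 0.00222). On the bioB, bioC and bioD scale 18 of the 20 were higher and 1 lower, beside 17406 higher and 1589 lower of 22746 probe sets.

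**Figure D4:**
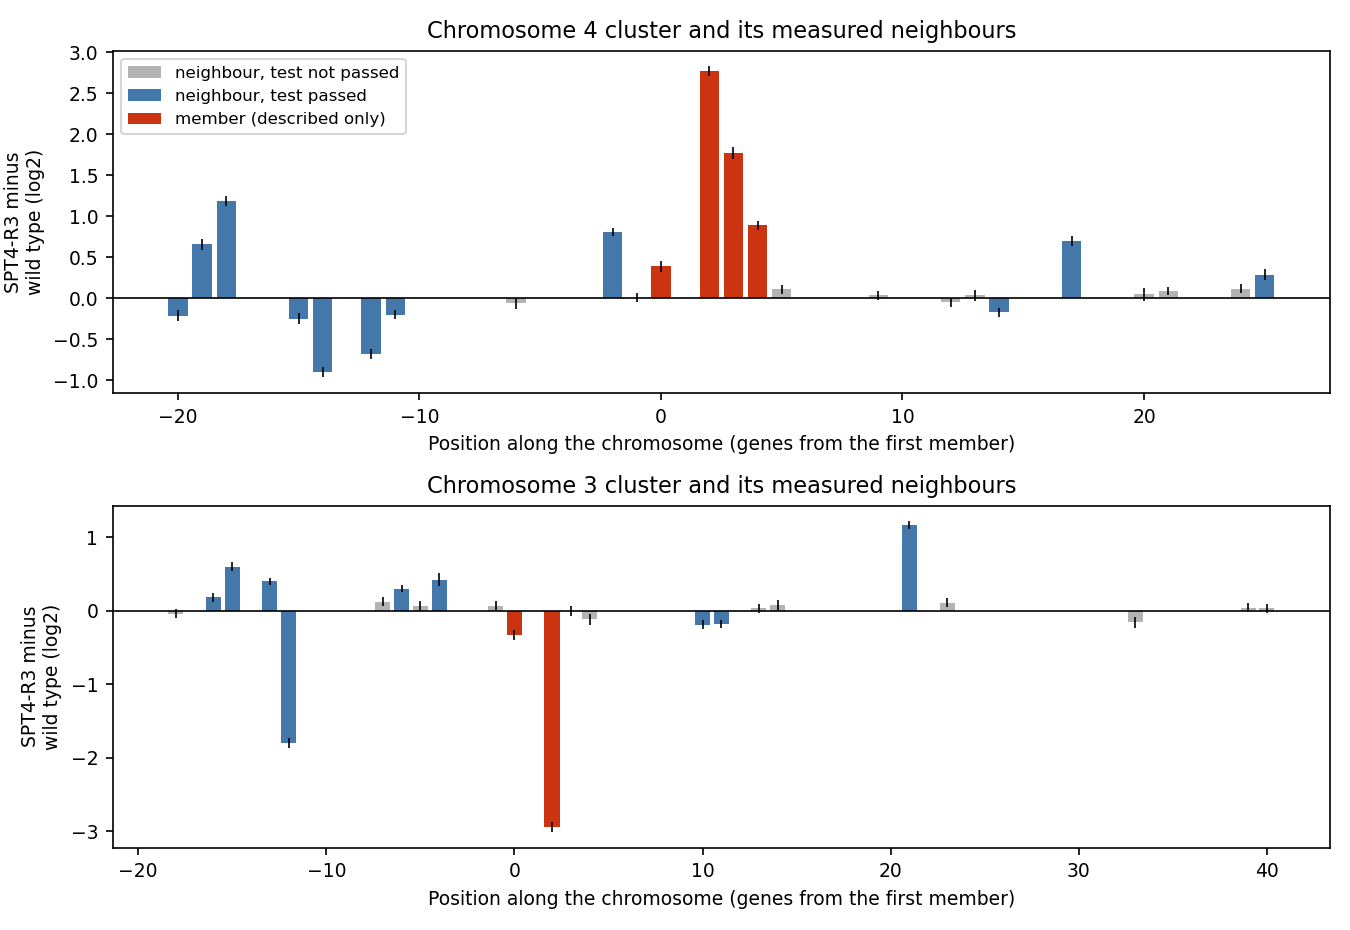
Difference of SPT4-R3 minus wild type in log2 (y axis, bars from 0, with the SE) along the gene order of chromosome 4 (upper panel) and chromosome 3 (lower panel), counted in genes from the first member of each group. Red bars are members, described with no test. Blue bars are neighbours that passed the test on the deposited scale and grey bars are neighbours that did not. Genes without a single-gene probe set leave gaps. The 3 tall red bars of the upper panel, at 2.77, 1.77 and 0.89, end at AT4G15710 (0.11), and in the lower panel AT3G62950 (-2.94) stands between AT3G62930 (-0.33) and AT3G62960 (-0.01).

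The genes most like the chromosome 4 cluster were sought over the 6 arrays, by the Euclidean distance in log2 between the values of a gene and those of the cluster mean, each taken from its own wild-type mean. The nearest 5 of the other genes were AT1G75190 (distance 0.0894), AT4G27900 (0.113), AT2G47390 (0.126), AT4G34180 (0.137) and AT4G01130 (0.145). Their differences of 1.4 to 1.5 surround the 1.45 of the cluster mean, which follows from how they were chosen. No other glutaredoxin gene was among them, which also follows, as their largest rise was the 0.88 of AT4G33040.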

How the data were processed

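Each sample was hybridised to 1 single-colour array. The deposited table holds log2 signals per probe set, read as log2 from their range, made in Affymetrix Expression Console per the submitters' processing notes; algorithm, background correction and normalization: not given in the sources used here. Arrays carry no counts, so their number limits the precision. Of 22810 probe sets, 64 were controls and 22746 were tested with limma 3.58.1 in R 4.3.3 (two-sided, Benjamini-Hochberg over all of them, threshold 0.05). In the platform annotation 13513 probe sets had 1 gene, 503 several and 8730 none; 13436 of the 13513 matched a RefSeq table (assembly TAIR10.1) by Entrez identifier, used only for names and gene order. Where a gene had several probe sets, the brightest stood for it. No protein or promoter sequence was used here.

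The members and lists were chosen with earlier results of these data known. Named genes were all members and other measured CC-type genes, up to 4 called genes of each other list by p (2 where none passed) and of each flank by size, SPT4 genes and the 5 nearest patterns; the direct neighbours were added for their position, and AT5G20500, the called CPYC-type gene with the highest p, was chosen after its value was seen. Root and leaf markers were printed as a tissue check. Control probe sets were compared by an exact permutation test. On simulated arrays of 22746 probe sets, 12 of 50 shifts by 0.25 log2 were recovered, 41 of 50 by 0.5 and 50 of 50 by 1. Only 50 probe sets were shifted at each size, against 49.9% called in the data. The Benjamini-Hochberg cut-off therefore differs, and this recovery does not give that of the real comparison. The alternatives were quantile normalization, 3 centrings, a filter on dim probe sets, trend and robust fitting, a replicate block, leaving out each array, dropping shared-probe identifiers and averaging a gene's probe sets.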

Additional observations from a re-analysis of the deposited data

How the results depend on the processing

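With 3 arrays per genotype the leave-one-out ranges were 7 to 7 called members, 5 to 5 other CC-type genes, 5 to 5 CPYC-type genes, 9959 to 10768 of all probe sets, 9 to 10 genes flanking the chromosome 4 cluster and 7 to 9 flanking the chromosome 3 group, and the cluster means differed by 1.42 to 1.47 and by -1.13 to -1.07. Scaling mattered more. Centred on bioB, bioC and bioD, 18995 probe sets were called (17406 higher, 1589 lower, or 91.6% of calls higher in place of 52.9%) against 11351 as reported, and 17 and 19 flanking genes against 11 and 9; the cluster means were 1.85 and -0.7, 1 of 2 glutathione genes was called, and members split 7 higher and 1 lower. Centred on the poly-A controls, 73.6% of calls were higher, the cluster means were 1.6 and -0.94, 7 genes flanking the chromosome 4 cluster (5 higher, 2 lower), 1 glutathione gene and 1 nitrate response gene were called, and members split 5 and 1. These centrings add the same array shift to every probe set, so their calls are not independent of each other. The fit treats the error of this shared shift as separate for each probe set, so p-values on these scales are no separate evidence on single genes. Under bioB, bioC and bioD the sign turned for AT3G62930 (0.06), AT3G62960 (0.39), ROXY1 (AT3G02000, 0.38), ROXY2 (AT5G14070, 0.29), GRX480 (AT1G28480, 0.14), GR (AT3G54660, 0.07), RCA (AT2G39730, 0.12) and AT3G62970 (0.27), and AT3G25790 went from 0 to 0.39. Without the dimmest 30% of probe sets AT4G15660 dropped out and the chromosome 4 mean of the other 3 was 1.81. GRX480, AT3G25790, AT4G15650 and AT4G15710 dropped out as well, and of the 7 other CC-type genes left 1 was higher and 3 were lower. Same-numbered arrays did not deviate together (correlations -0.24, -0.126 and -0.0645). With 3 arrays per genotype this cannot decide whether the numbers pair the samples. The replicate block gave 10670 probe sets and 7 members called. It gave differences of 1.45 and -1.09 for the cluster means, and changed no call of a member. The other alternatives kept each of these counts within 1.5 times.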
